A study of Mus musculus with 9 samples.

Results

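The genes described here encode parts of the contractile apparatus of smooth muscle cells, and 9 were listed: Acta2, Actg2, Tpm1, Tpm2, Cnn1, Cnn2, Cald1, Tagln and Myl9. They were listed by name and found in the authors' deposited tables by symbol or, where a table gives no symbol, by gene identifier. All 9 had a row among the 18971 genes of the table for JICD1 and 8 had one among the 19287 genes of the table for NICD1. Myl9 had a row for JICD1 only.

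RNA was sequenced from cultured mouse brain astrocytes of the genotype Ink4a-/-, which all groups shared. The control cells had been transfected with the plasmid pcDNA puro, one group with pcDNA HA-JICD1 puro and another group with pcDNA NICD puro, and each of the 3 groups had 3 libraries. JICD1 stands for the Jagged1 intracellular domain, here with an HA tag, cut from a ligand of Notch receptors. NICD1 stands for the Notch1 intracellular domain, the receptor fragment that enters the nucleus and activates transcription with the DNA-binding protein RBPJ. The design set each transfected group against the empty-vector control, which asks what each intracellular fragment does to gene expression in these cells. The labels do not say whether the libraries of a group came from separate cultures, how long after transfection the cells were collected, or what share of the cells carried a plasmid.

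The authors' deposited tables hold for each gene a log2 ratio of transfected over control cells and a score from 0 to 1. A gene with a score of 0.8 or more is called higher or lower below. The score is not a p-value, and the tables give no value per library, so neither replicate error, test nor sequencing depth can be given for any ratio here. Some ratios were inferred, from their place on a curve of ratio against score shared by 694 genes with equal negative ratios in both tables, to rest on a group at a common floor, and no fold is given for those. Jag1 stood at -1.39 on the log2 scale (score 0.759) for JICD1 in the authors' deposited table. Whether the Jag1 value counts transcripts of the plasmid, which carries the intracellular domain, is not stated, so the label could not be checked by it. The JICD1 group is therefore named as the libraries labelled JICD1, and every direction given for it rests on the label.

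In a smooth muscle cell, actin filaments slide past myosin filaments when the myosin regulatory light chain is phosphorylated. Tropomyosins lie along the actin filament, caldesmon and calponin bind the filament and restrain myosin, and transgelin (SM22) binds and bundles actin. Many of these genes carry CArG boxes, the binding motif of serum response factor (SRF), which works with the coactivators myocardin and the myocardin-related transcription factors (MRTFs), and TGF-beta, mechanical tension and Notch signalling are known to raise them in mural cells and myofibroblasts. In brain they mark vascular smooth muscle and some pericytes, and astrocytes in serum culture can express several of them, since the MRTF-SRF pathway responds to serum and to actin assembly.

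The stretch of DNA just upstream of the transcript start is shown for 4 of these genes, because they differ in response and in the motifs they carry. Promoter sequences were taken from RefSeq (build GRCm38.p6), which matched 7 of the 9 genes, with 8 start sites since Cald1 has a pair of them. The 250 bases before each start were searched for the CArG box, for a CArG box with 1 mismatch among its central bases, for the core CATTCC of the TEAD factors and for the core TGGGAA of RBPJ, on both strands. Each window is written 5′ to 3′ on the gene's own strand and ends at the base before the start, with the matched motifs in capitals.
Acta2, chr19:34255374-34255623, minus strand: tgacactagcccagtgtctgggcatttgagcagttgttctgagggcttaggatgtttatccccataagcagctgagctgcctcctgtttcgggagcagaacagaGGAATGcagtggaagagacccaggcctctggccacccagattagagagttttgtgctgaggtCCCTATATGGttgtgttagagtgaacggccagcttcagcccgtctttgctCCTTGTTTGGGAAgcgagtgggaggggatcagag
Tpm2, chr4:43523555-43523804, minus strand: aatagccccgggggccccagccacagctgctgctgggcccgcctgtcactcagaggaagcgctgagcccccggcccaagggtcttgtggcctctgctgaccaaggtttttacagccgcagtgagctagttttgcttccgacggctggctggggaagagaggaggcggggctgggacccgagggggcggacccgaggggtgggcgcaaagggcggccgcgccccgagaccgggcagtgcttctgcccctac
Tpm1, chr9:67049214-67049463, minus strand: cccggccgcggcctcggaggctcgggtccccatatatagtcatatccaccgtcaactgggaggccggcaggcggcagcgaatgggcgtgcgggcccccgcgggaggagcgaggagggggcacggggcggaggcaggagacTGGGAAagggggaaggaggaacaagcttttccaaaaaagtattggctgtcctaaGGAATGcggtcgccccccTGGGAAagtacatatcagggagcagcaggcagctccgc
Cnn2, chr10:79988350-79988599, plus strand: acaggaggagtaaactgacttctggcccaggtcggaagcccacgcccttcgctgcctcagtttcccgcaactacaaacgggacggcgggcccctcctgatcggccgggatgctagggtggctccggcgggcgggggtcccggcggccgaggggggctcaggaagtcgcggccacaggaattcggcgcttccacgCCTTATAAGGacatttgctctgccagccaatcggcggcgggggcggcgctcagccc
The Acta2 window holds CArG boxes with 1 mismatch at -84 to -75 and at -34 to -25, counted from the start, where the base before the start is -1. It also holds a TEAD core on the minus strand at -146 to -141 and an RBPJ core at -27 to -22, which overlaps the nearer CArG-like box. The Tpm1 window holds RBPJ cores at -110 to -105 and at -38 to -33 and a TEAD core on the minus strand at -56 to -51. Cnn2 has a full CArG box at -56 to -47. None of the motifs occurs in the Tpm2 window, in the Cnn1 window or at the second Cald1 start. The first Cald1 start has a TEAD core at -153 to -148, and Myl9 has a full CArG box at -161 to -152 and a mismatched one at -99 to -90.

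Among 32851 mouse windows of 250 bases, 1.47% held a full CArG box, and 2 of the 8 windows of the listed genes did. A CArG box with 1 mismatch stood in 7.24% of all windows and either form in 8.59%, against 3 of the 8 for either form. A TEAD core stood in 12.6% of all windows and in 3 of the 8, and an RBPJ core in 21.6% and in 2 of the 8. A match describes letters only, binding was not measured here, and a gene without a match in this window may have one elsewhere.

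**Figure D1:**
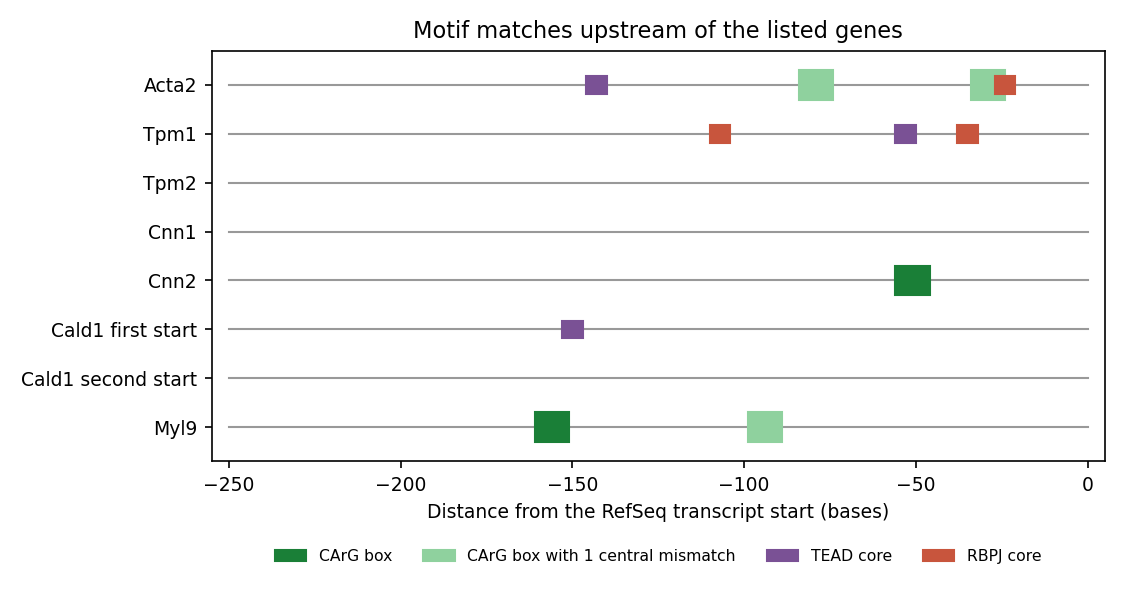
Motif matches in the 250 bases before each RefSeq transcript start of the listed genes, with distance from the start in bases on the horizontal axis and 1 line per start site. Acta2 has 4 matches, with an RBPJ core overlapping the nearer CArG-like box, and Cnn2 and Myl9 have the full CArG boxes, whereas Tpm2, Cnn1 and the second Cald1 start have none.

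In the libraries labelled JICD1, the contractile genes were mostly lower than in control. Of the 9 genes in the authors' deposited table, 8 had a ratio below 0, and Acta2, Tpm1, Tpm2 and Cald1 were called lower, while none was called higher. Among all genes, 45.5% had a ratio below 0, 1.74% were called lower and 1.07% higher. The median log2 ratio of the 9 genes was -1.39, against 0.05 for all genes. With NICD1 the picture turned: 7 of the 8 genes in the authors' deposited table had a ratio above 0, and Acta2, Tpm2 and Tagln were called higher and none lower. Of all genes with NICD1, 48.5% had a ratio above 0, 1.64% were called higher and 0.97% lower, and the median of the 8 genes was 0.58, against -0.02 for all genes. Fewer cells that express a gene and less of its RNA per cell cannot be told apart in bulk RNA.

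**Figure D2:**
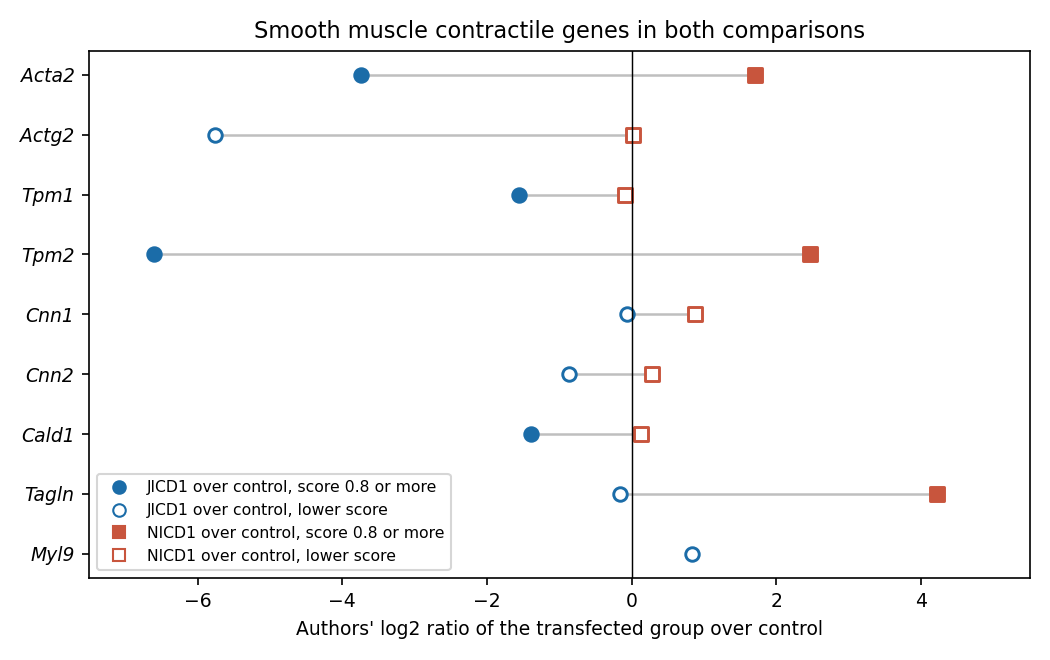
Log2 ratio over control of each listed gene in the authors' deposited tables, with circles for the libraries labelled JICD1 and squares for NICD1, filled where the score is 0.8 or more, and a grey line joining the values of 1 gene. For the 8 genes with both values the circle lies to the left of the square, by the widest span for Tpm2 (-6.61 and 2.47) and the narrowest for Cnn1 (-0.07 and 0.88).

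Acta2 encodes alpha smooth muscle actin, the actin isoform most used as a marker of smooth muscle and of myofibroblasts. In the libraries labelled JICD1 its log2 ratio was -3.74 (score 0.939) in the authors' deposited table, and its level was 13.4-fold lower than in control. Its score ranked 60 from the highest in that table. With NICD1 the authors' deposited table gave Acta2 1.71 on the log2 scale (score 0.867), 3.26-fold higher than control. Acta2 was thus called in opposite directions, and the deposited ratios differed by -5.45, a level 43.7-fold lower in the libraries labelled JICD1 than with NICD1.

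Actg2 encodes gamma smooth muscle actin, the main actin of visceral smooth muscle. Its log2 ratio in the authors' deposited table was -5.76 for the libraries labelled JICD1, further from 0 than that of Acta2, but its score was only 0.593. That point lies on the curve of genes with a group at the floor (0.593 at this ratio), so Actg2 was inferred to be at the floor in the libraries labelled JICD1 and has no fold. With NICD1 the authors' deposited table placed Actg2 at 0.02 with a score of 0.122, next to control. The row describes a model of 6 exons and 772 bases at chr6:83520683-83527810 on the minus strand (GRCm38), inside the gene at chr6:83512905-83536265, and it equals 1 of 6 annotated transcripts.

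Tpm2 encodes beta-tropomyosin, which is abundant in smooth and slow skeletal muscle. It had the lowest log2 ratio of the 9 genes in the authors' deposited JICD1 table, -6.61 with a score of 0.955, or 97.4-fold lower, which ranked 47 from the lowest of all genes. The score is above the 0.699 that a gene at the floor would have at that ratio. With NICD1 the authors' deposited table gave Tpm2 2.47 on the log2 scale (score 0.894), 5.52-fold higher than control. The difference between the constructs was -9.07, or 538-fold, the widest of the 8 genes with both values.

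Tpm1 encodes alpha-tropomyosin, which has many splice forms and is made in nearly all cells. Its log2 ratio in the authors' deposited table was -1.56 (score 0.848) for the libraries labelled JICD1, 2.95-fold lower than control. With NICD1 the authors' deposited table had Tpm1 at -0.09 (score 0.353), the sole listed gene with a ratio below 0 there. Tpm1 and Tpm2 therefore shared a direction in the libraries labelled JICD1, where Tpm2 was much further below control, and only Tpm2 was called with NICD1. The difference between the constructs was -1.47 for Tpm1.

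The calponins, which bind actin and inhibit the myosin ATPase, had no call. Cnn1, the calponin of differentiated smooth muscle, had log2 ratios of -0.07 (score 0.154) for the libraries labelled JICD1 and 0.88 (0.280) for NICD1 in the authors' deposited tables. Among the 300 genes nearest in absolute ratio, 11% had a lower score than Cnn1 for JICD1 and 53.3% for NICD1, so its scores were low to middling for ratios of that size. Cnn2, a calponin also made outside muscle, stood at -0.87 with a score of 0.777 for the libraries labelled JICD1, 1.82-fold lower and just short of a call, and at 0.28 with a score of 0.611 for NICD1 in the authors' deposited tables. Of its 300 neighbours, 99.3% and 98.3% had a lower score, so Cnn2 had among the highest scores that ratios of this size reach. The Cnn2 row describes a model of 6 exons and 926 bases at chr10:79988623-79994684 on the plus strand (GRCm38), 1 of 2 annotated transcripts of the gene.

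Cald1 encodes caldesmon, the actin-binding inhibitor of myosin, as a long form in smooth muscle and a short form elsewhere. The authors' deposited tables gave it -1.39 on the log2 scale (score 0.838) for the libraries labelled JICD1, 2.62-fold lower, and 0.13 (0.444) for NICD1. It was the called gene nearest to the threshold in the JICD1 table, while Cnn2 was the nearest below it. The row describes a retained intron model of 2 exons and 674 bases at chr6:34764956-34766638 on the plus strand (GRCm38), near the 3′ end of the gene at chr6:34598500-34775473, which has 18 annotated transcripts, 10 of them coding. The sources used here do not say how reads were assigned to this model, and the ratio does not tell which form of caldesmon it follows.

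Tagln encodes transgelin, or SM22, an early marker of the smooth muscle lineage. It had the highest log2 ratio of the 8 genes in the authors' deposited NICD1 table, 4.21 with a score of 0.940, or 18.5-fold higher than control, and its score ranked 60 from the highest in that table. In the libraries labelled JICD1 the authors' deposited table placed Tagln at -0.16 with a score of 0.197, close to control. Of the 300 genes nearest in absolute ratio, 10.3% had a lower score for JICD1 and 99% for NICD1. Tagln and Acta2 were thus both called higher with NICD1, while of this pair Acta2 was called lower in the libraries labelled JICD1 and Tagln was not. The difference between the constructs was -4.38 for Tagln, or 20.8-fold.

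Myl9 encodes the regulatory light chain of smooth muscle myosin, whose phosphorylation starts contraction. It was the sole listed gene above 0 in the authors' deposited JICD1 table, at 0.84 with a low score of 0.181. Of the 789 genes that have a row for JICD1 and none for NICD1, 779 had a ratio above 0, so a ratio above 0 is the usual value for a gene of this kind. The row describes a processed transcript of 2 exons and 387 bases at chr2:156778517-156781164 on the plus strand (GRCm38), whereas 1 of the 4 annotated transcripts of Myl9 is coding. As for Cald1, the assignment of reads to this model is not stated, and the ratio does not tell whether it follows the messenger RNA of the light chain.

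**Figure D3:**
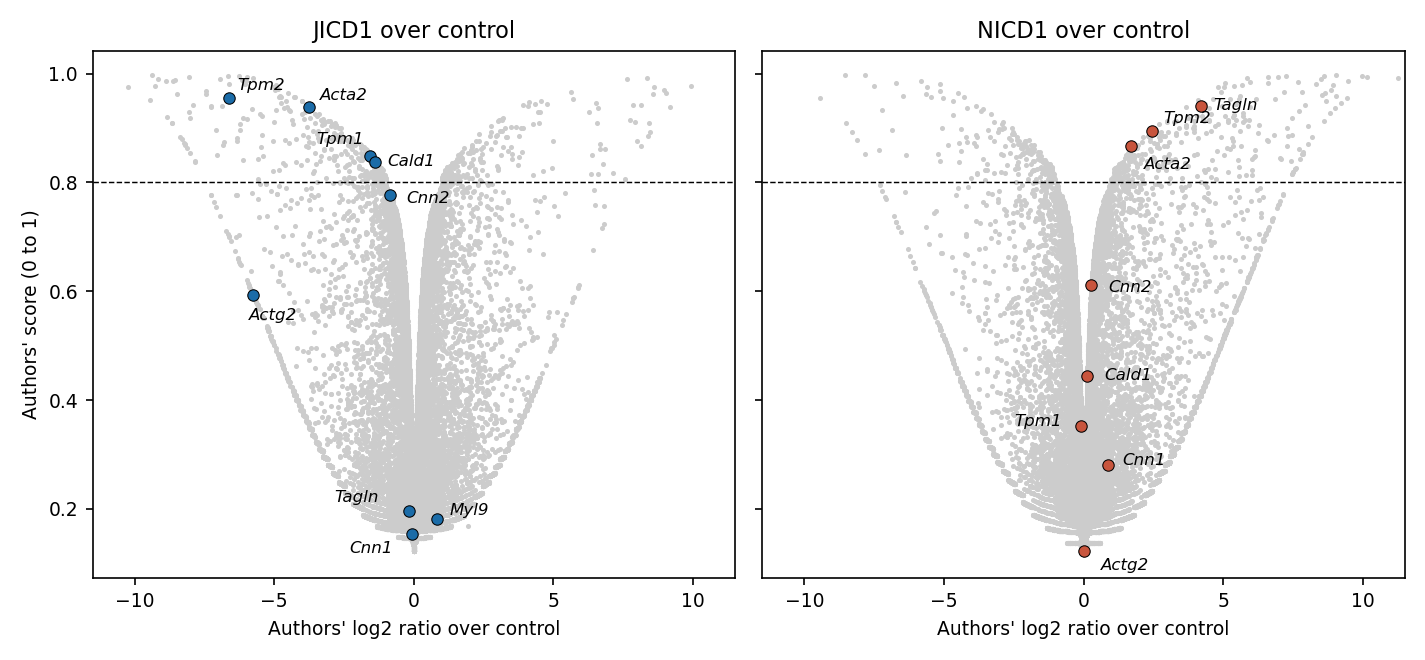
Log2 ratio over control (horizontal) against score (vertical) in the authors' deposited tables, with every gene in grey, the listed genes in colour and the dashed line at a score of 0.8. Acta2 and Tpm2 lie above the line in both panels, on opposite sides of 0, and Actg2 lies on the lower edge of the cloud for JICD1, where genes with a group at the floor fall.

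The difference between the constructs was below 0 for all 8 genes with both ratios, and for 43.7% of all genes. Of these, 7 differed by a log2 of -1 or below, and Cnn1, at -0.95, was just outside. Among all 18182 genes in both tables the share at -1 or below was 13.6%. The median difference was -2.95 for the 8 genes and 0.04 for all genes. Both ratios use the same control libraries, so the difference is free of the control value but has no score of its own. Of 174 genes called in both tables, 13 were called lower in the libraries labelled JICD1 and higher with NICD1, and Acta2 and Tpm2 are among those 13.

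Most of the close relatives of these genes had smaller ratios. Of 12 listed paralogs, 11 had values and none was called in either of the authors' deposited tables, with a median of -0.29 for the libraries labelled JICD1 and 0.08 for NICD1. Of all genes, 1.74% were called lower and 1.07% higher for JICD1, and 0.97% and 1.64% for NICD1. The absence of a call among 11 genes is near those shares. For JICD1, 7 of the 11 were below 0 (45.5% of all genes), and for NICD1 7 were above 0 (48.5% of all genes). Among the actins, the cytoplasmic Actb had log2 ratios of -0.83 (score 0.776) and -0.28 (0.614) and Actg1 of -0.45 (0.691) and 0.08 (0.329) for JICD1 and NICD1 in the authors' deposited tables. The Actb values for JICD1 lay close to those of the listed gene Cnn2 (-0.87, score 0.777). Of the 300 genes nearest to Actb in absolute ratio, 99.7% had a lower score for JICD1. Acta1, the skeletal muscle actin, had -4.15 (0.565) and -0.32 (0.228) in the authors' deposited tables, and Actc1, the cardiac actin, had no row. The actins are near-identical as proteins, as are stretches of the tropomyosins, and how far their transcripts share sequence was not examined. The sources used here do not say how reads that match several members were assigned, and the ratios of Acta1, Actg2 and Acta2 are uncertain to that extent.

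Neither of the other tropomyosins resembled Tpm2. Tpm3 stood at 0.47 (score 0.697) and 0.04 (0.234), and Tpm4 at -0.29 (0.608) and 0.36 (0.664), for JICD1 and NICD1 in the authors' deposited tables. The non-muscle calponin Cnn3 had 0.09 (0.350) and 0.45 (0.701), so its JICD1 ratio was not below 0 as that of Cnn2 was. The transgelin paralogs Tagln2, at -0.45 (0.695) and 0.23 (0.571), and Tagln3, a neuronal form, at 0.05 (0.141) and -0.03 (0.127), did not show the high NICD1 ratio of Tagln in the authors' deposited tables. The myosin light chain genes Myl6, Myl12a and Myl12b lay between -0.39 and 0.20 for JICD1 and between -0.25 and 0.52 for NICD1 in the authors' deposited tables. Over the 11 paralogs the difference between the constructs had a median of -0.53, against 0.04 for all genes. It was below 0 for 9 of the 11, as for the listed genes, and for 43.7% of all genes. Only the difference of Acta1 was -1 or below, beside 13.6% of all genes.

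**Figure D4:**
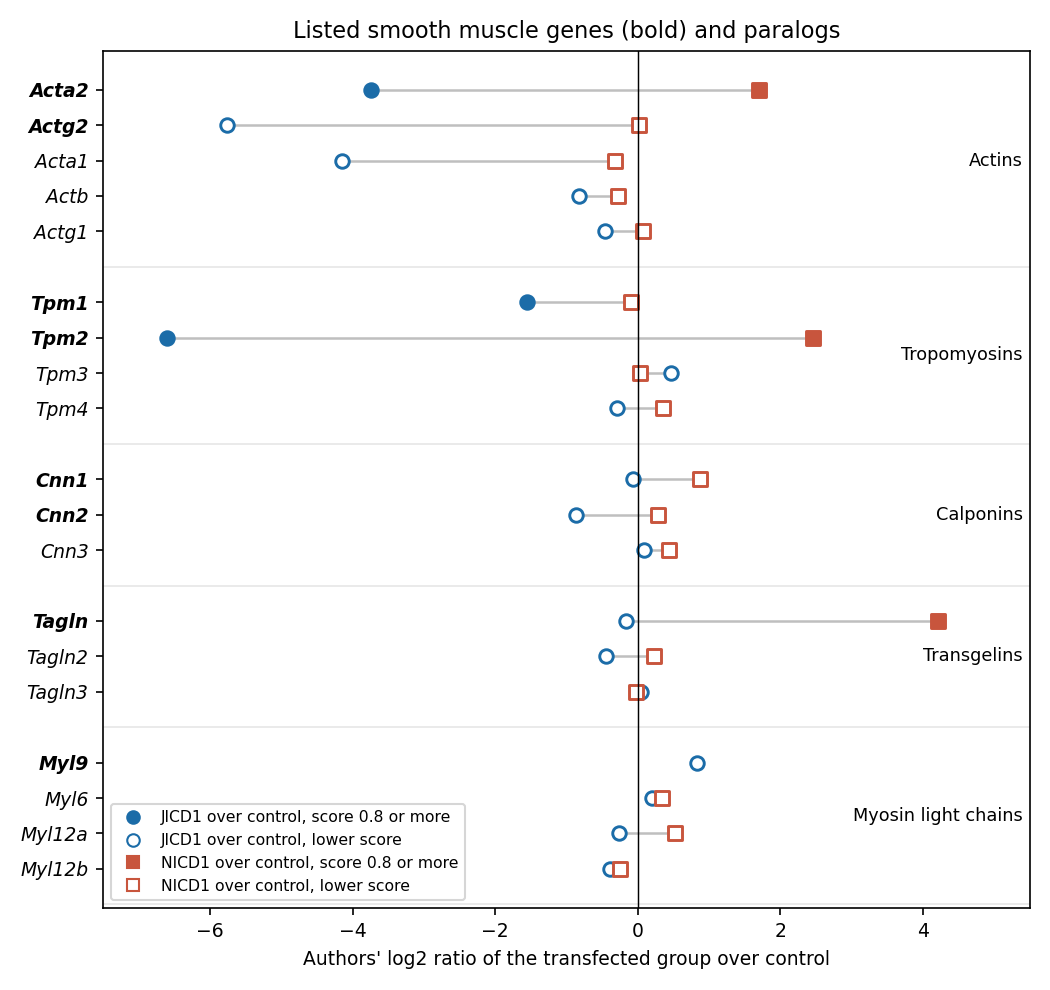
Log2 ratio over control of the listed genes (bold) and their paralogs in the authors' deposited tables, by family, with circles for the libraries labelled JICD1 and squares for NICD1, filled where the score is 0.8 or more. Filled symbols occur for the listed genes alone, and within the tropomyosins the span of Tpm2 (-6.61 to 2.47) is far wider than that of Tpm3 (0.04 to 0.47).

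Other genes of the smooth muscle programme also had ratios mostly below 0 for JICD1 and above 0 for NICD1, with few calls. Of 18 listed, 17 had a value for JICD1, 12 of them below 0, with Csrp1 (-1.67, score 0.856) and Pdlim7 (-1.14, 0.815) called lower in the authors' deposited table and a median of -0.69, beside 45.5% below 0 and 1.74% called lower among all genes. Csrp1 encodes a LIM protein of smooth muscle nuclei and filaments, and Pdlim7 a PDZ-LIM scaffold of actin bundles. For NICD1, 13 of 16 were above 0 (48.5% of all genes), none was called, and the median was 0.38. Of all genes with NICD1, 1.64% were called higher and 0.97% lower. The difference was below 0 for 14 of 16 genes, with a median of -0.96.

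Further genes of smooth muscle contraction and structure gave no call. Calls were few among all genes too, with 1.74% called lower and 1.07% higher for JICD1 and 0.97% and 1.64% for NICD1. Myh11, the smooth muscle myosin heavy chain, had log2 ratios of -0.88 (score 0.163) and 0.54 (0.158) for JICD1 and NICD1 in the authors' deposited tables. Smtn, which encodes smoothelin, had -0.18 (0.466) and 0.07 (0.293), and Des, the desmin gene, -1.83 (0.463) and -1.56 (0.454) in the authors' deposited tables. Mylk, the kinase of the regulatory light chain, had 0.01 (0.142) and -0.85 (0.490). Some markers lay above 0 for JICD1: Lmod1, the leiomodin gene, had 2.31 (0.311) and 1.85 (0.261), and Kcnmb1, a potassium channel subunit gene, had 0.68 (0.161) and no row for NICD1 in the authors' deposited tables. Lmod1 and Kcnmb1 were named after their values were seen. The scores of Myh11 were near the lowest of their tables, which are 0.123 and 0.117.

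The regulators of these genes had ratios on both sides of 0, and Srf itself stood near control. Srf had log2 ratios of -0.14 (score 0.406) and -0.24 (0.540), and the coactivator gene Mrtfb 0.31 (0.466) and -0.12 (0.291), for JICD1 and NICD1 in the authors' deposited tables. Mrtfa was nearer to the contractile genes, at -0.70 (0.731) and 0.55 (0.717) in the authors' deposited tables, a difference of -1.25. Myocd, the smooth muscle coactivator myocardin, had 2.81 (score 0.263) for JICD1 in the authors' deposited table, where the control group was inferred to be at the floor, and no row for NICD1. Of the 13 genes of this list with a JICD1 value, 8 were above 0, beside 10344 of 18971 among all genes. The LIM cofactor gene Fhl1 (4.07, score 0.941) and Nexn (3.78, 0.847) were called higher in the authors' deposited table, as were 1.07% of all genes. Nexn was counted in this list, although it encodes an actin-binding protein and not a regulator. For NICD1 Nexn stood at 3.15 with a score of 0.782. There 3 of 10 genes of this list were above 0, beside 48.5% of all genes, and none was called. Of all genes with NICD1, 1.64% were called higher and 0.97% lower. The median of this list was 0.14 over 13 genes for JICD1 and -0.17 over 10 for NICD1, so the medians cover unlike genes. Fhl1, Myocd and Gata6 (0.93 for JICD1) had no row for NICD1. Of the 789 genes with a row for JICD1 only, 779 were above 0.

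Cytoskeletal targets of MRTF and SRF outside muscle were counted beside the contractile genes. Of 16, 14 had a JICD1 ratio below 0 (45.5% of all genes) and 4 were called lower (1.74% of all genes) in the authors' deposited table. These were Lima1 (-1.48), Fblim1 (-1.40), Myh9 (-1.19) and Vcl (-1.17), and the list median was -0.38. They encode an actin cross-linker, a filamin-binding protein, the non-muscle myosin heavy chain IIA and vinculin. For NICD1, 12 of 16 were above 0 (48.5% of all genes) and Pdlim1 (1.17) and Zyx (1.07), genes of actin and focal adhesion scaffolds, were called higher in the authors' deposited table, with a median of 0.15. Of all genes with NICD1, 1.64% were called higher. The difference was below 0 for 14 of 16, with a median of -0.74 against -2.95 for the contractile genes. Vcl and Zyx were named after their values were seen.

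Signals known to act on contractile genes had ratios mostly below 0 for JICD1 and above 0 for NICD1. Among 18 with a JICD1 value, 12 were below 0 (45.5% of all genes), and Pdgfb (-2.84, score 0.901) and Tgfb1 (-1.03, 0.806), ligands of the PDGF and TGF-beta pathways, were called lower in the authors' deposited table, with a median of -0.52. Of all genes, 1.74% were called lower for JICD1. Pdgfb signals to mural cells and favours their growth over contraction. For NICD1, 13 of 19 were above 0 (48.5% of all genes), and Notch1 (1.77, score 0.815), Hes1 (1.58, 0.846) and Jag1 (1.36, 0.819) were called higher in the authors' deposited table, with a median of 0.71. Of all genes, 1.64% were called higher for NICD1. Notch1 is the gene of the transfected fragment, and whether its value holds plasmid transcripts was not tested. For JICD1 it stood at 1.33 (score 0.735) in the authors' deposited table. Notch3, the Notch receptor of smooth muscle and pericytes, had 0.70 (score 0.180) and 2.69 (0.425), and Tgfb1 with NICD1 had 0.60 (0.738), in the authors' deposited tables. The median difference of this list was -1.30.

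**Figure D5:**
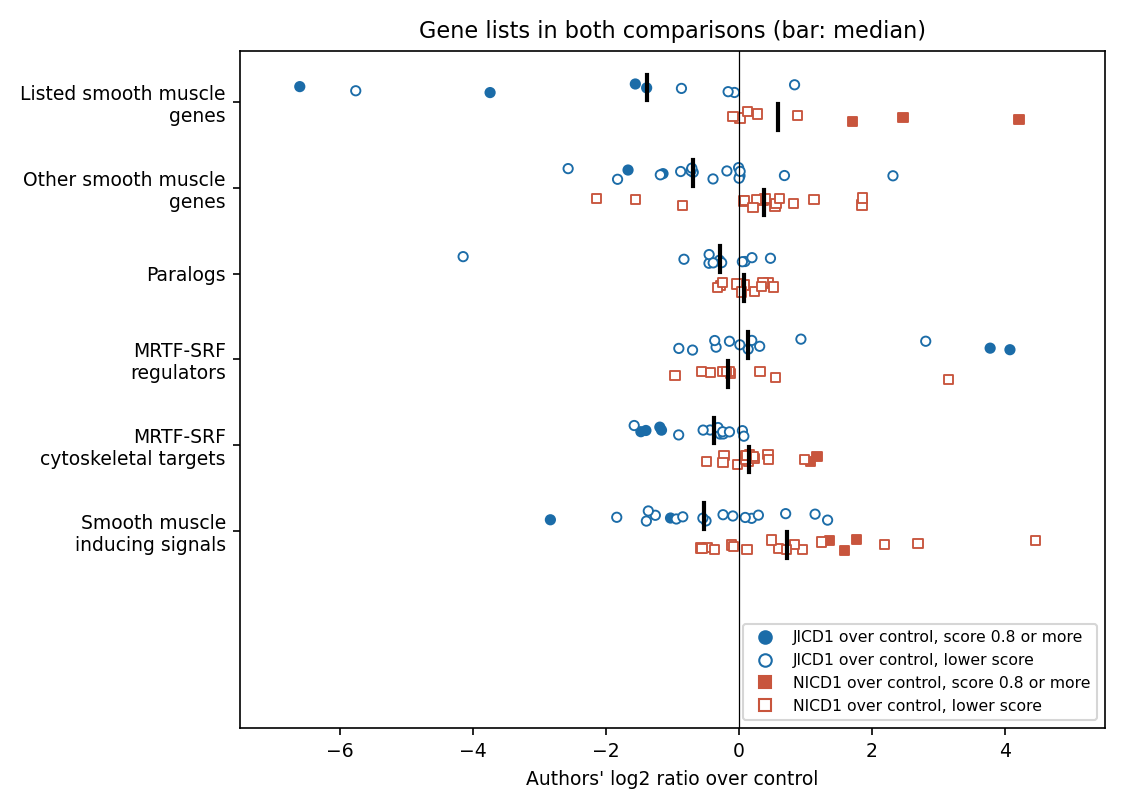
Log2 ratio over control of every gene of the listed groups in the authors' deposited tables, with circles for the libraries labelled JICD1, squares for NICD1, filled symbols for a score of 0.8 or more and a black bar at each median. Among the 6 groups plotted, which leave out the cell type markers, the listed smooth muscle genes have the lowest median for JICD1 (-1.39), and for NICD1 their median (0.58) lies under that of the inducing signals (0.71).

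Genes most like Acta2 and Tagln were sought among the 170 genes called in both tables that have an established symbol, by Euclidean distance over the 2 log2 ratios. Nearest to Acta2 were Mustn1 (-3.43 and 1.43 for JICD1 and NICD1, distance 0.419), Ccbe1 (-2.79 and 1.92, 0.978), Dbn1 (-2.74 and 1.29, 1.09), Plau (-4.79 and 1.36, 1.10) and Rcn3 (-2.06 and 1.43, 1.70) in the authors' deposited tables. Their shared directions with Acta2 follow from how they were picked. Tagln was itself not called for JICD1 and so lay outside the genes searched, and its nearest genes given here are Rgs16 (1.71 and 3.67, distance 1.95), Thbs1 (-1.02 and 1.78, 2.57), Col1a1 (-1.19 and 1.74, 2.67) and Arhgap29 (2.41 and 3.31, 2.73) in the authors' deposited tables. Likeness over 2 ratios describes these tables only.

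Markers of other cell types that a brain culture can hold were read beside the contractile genes. The tables hold ratios and no levels, so they do not show how much of any cell type was present, and the astrocyte label could not be checked by level. Of 10 astrocyte markers with values, 6 were below 0 for JICD1 and 7 for NICD1, with medians of -0.65 and -0.59. Of all genes, 45.5% were below 0 for JICD1, and 1.07% were called higher there. For NICD1, 9926 of 19287 genes were below 0 and 0.97% were called lower. Gfap had ratios of -1.36 (score 0.242) and -1.52 (0.261), Nfia was called higher for JICD1 (3.77) and Sox9 lower for NICD1 (-1.64) in the authors' deposited tables, and Aqp4 had no row. Of all genes, 1.74% were called lower for JICD1 and 1.64% higher for NICD1. Smooth muscle cell markers, of which 7 of 8 are also in the list of other smooth muscle genes, had no call. Their medians were -0.09 over 8 genes for JICD1 and 0.31 over 6 for NICD1. These cover unlike genes, since Myocd (2.81, control inferred at the floor) and Kcnmb1 (0.68) had a row for JICD1 only.

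Pericyte and fibroblast markers also lay mostly below 0 in the libraries labelled JICD1. Among all genes there, 45.5% were below 0 and 1.74% were called lower. Of 6 pericyte markers, 4 were below 0, with a median of -1.52 and Pdgfrb (-2.17) and Anpep (-3.79) called lower in the authors' deposited table, and for NICD1 the median of 7 was 0.08 with no call. Of 6 fibroblast markers, 5 were below 0 for JICD1, with a median of -1.92 and Dcn (-8.67, inferred at the floor), Col3a1 (-2.81) and Col1a1 (-1.19) called lower in the authors' deposited table. For NICD1, with 5 fibroblast markers, the median was -1.23, and Col1a1 (1.74) was called higher and Dcn (-5.08) and Col3a1 (-3.31) lower in the authors' deposited table. Of all genes with NICD1, 1.64% were called higher and 0.97% lower. Skeletal muscle markers, with Myod1 and Myog having no row, had medians of 0.71 over 4 genes for JICD1 and 0.74 over 2 for NICD1. These medians cover unlike genes, since Myh3 and Ckm, with the control inferred at the floor, had a row for JICD1 only. For the 2 skeletal muscle markers with both values the difference between the constructs was below 0, with a median of -1.54. Endothelial markers had medians of -0.07 and 1.24 over 4 genes each. Neither the skeletal muscle nor the endothelial markers had a call. The part of these cell types in the values of the contractile genes was not tested.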

How the data were processed

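RNA-seq libraries of 3 control, 3 JICD1 and 3 NICD1 samples lie behind 2 tables of the authors' own comparisons. Per the file headers, the deposited values are a log2 ratio (transfected cells over control) and a score from 0 to 1, named Probability. The sources used here do not state how the score was made. The submitters' processing notes name Bowtie2, BWA and mm9, a mouse build, without versions or roles. The labels' protocols also name a kit that enriches methylated DNA, and its part in these RNA libraries is not given. A count test had been planned; the deposited tables hold no values per library, so no test, error or depth could be given.

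The listed genes and the companion lists were chosen with earlier results of these data known, and so was the score of 0.8 for a call. Named genes were all listed genes, fixed regulators, paralogs and smooth muscle genes, up to 4 called genes per companion list by absolute ratio, and, of the 5 genes nearest to Acta2 and to Tagln, those given. From the marker lists, the called genes and those defining a cell type were named. A companion list and a gene near Tagln are not reported here.

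Symbols came from the tables (7385 of 18971 and 7473 of 19287 genes) and otherwise from RefSeq and GENCODE vM21 names of GRCm38, giving 18681 and 18998 named genes. Gene models are the coordinates that the tables' description column gives, matched to GENCODE. A gene was inferred to have a group at the floor where its absolute log2 ratio was at least 1 and its score lay within 0.002 (0.01 above a log2 of 6) of the score curve of the 694 genes with equal negative ratios in both tables (tolerance 1e-06, against 1 gene with equal positive ratios). The inference and the motif search were tested on simulated data, with a simulated score made from the ranks of ratio and of difference. Since the making of the authors' score is not stated, that test does not show how often the inference is right for it. Constructs were compared by subtracting the NICD1 ratio from the JICD1 ratio. Python 3.11.15, pandas 2.3.3 and numpy 2.4.6 were used. Alternatives covered the score threshold, the centring of the ratios, a score filter, leaving out single genes and the source of symbols.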

Additional observations from a re-analysis of the deposited data

How the results depend on the processing

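Calls depended on the score threshold. At a score of 0.9 or more, 2 listed genes were called for JICD1 (Acta2 and Tpm2) and 1 for NICD1 (Tagln), and at 0.7 or more 5 and 3. Requiring an absolute log2 ratio of 1 as well gave 4 and 3, as reported. Among listed genes with a score of 0.5 or more the median log2 ratio was -2.65 for JICD1 and 2.09 for NICD1. That filter left out Cnn1, Tagln and Myl9 for JICD1 and Actg2, Tpm1, Cnn1 and Cald1 for NICD1. Most of these had ratios near 0, so the larger medians follow from the filter. Leaving out a single gene moved the JICD1 median to between -1.47 and -1.13 (-1.13 without Acta2, Actg2, Tpm1 or Tpm2, and -1.21 without Cald1). The NICD1 median became 0.28 without Acta2, Tpm2, Cnn1 or Tagln and 0.88 without Actg2, Tpm1, Cnn2 or Cald1, so its size rests on few genes. Less the median of all genes, all 17 ratios of the listed genes kept their sign, and 8 genes in place of 7 had a difference between the constructs of -1 or below. The share of all genes at -1 or below was not counted after that centring. With the tables' own symbols only, which match fewer genes, all 6 companion list counts above 0 dropped by over 1.5 times, and the other 4 were 0 in both. Settings that need values per library, such as another normalization, a filter on low counts or leaving out a replicate, were not run. No paired analysis was possible because the values used are 1 ratio per gene and group, with no value per replicate. Neither depth nor the spread between libraries is known, so small differences among ratios cannot be ranked.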
